A study of Mus musculus with 9 samples.

Results

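Excitatory and inhibitory synapses are built around receptors on the receiving cell, scaffold proteins that anchor them and adhesion molecules that join the cell to its partner. The 39 genes described here encode such proteins: 3 AMPA, 5 NMDA and 4 kainate receptor subunits, 4 metabotropic glutamate receptors, 6 GABA-A and 2 GABA-B receptor subunits, 9 scaffolds of excitatory synapses, 1 scaffold of inhibitory synapses and 5 adhesion molecules. Their rows were found in the table by gene symbol. All 39 were among the 56748 genes of the deposited table, and all 39 were among the 17171 genes that passed the filter on low counts. They were read in E14 (embryonic day 14) mouse brain, taken whole, with no genotype named other than wildtype, from 3 control libraries (saline), 3 libraries labelled poly(I:C) and 3 libraries labelled valproic acid. No cell type was sorted. Poly(I:C) is a synthetic double-stranded RNA that the immune system reads as a virus, and valproic acid is an anticonvulsant that also inhibits histone deacetylases. The labels name no dose, day of exposure, strain, sex or litter.

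AMPA, NMDA and kainate receptors are cation channels opened by glutamate, and metabotropic glutamate receptors act through G proteins. GABA-A receptors are chloride channels, while GABA-B receptors couple to G proteins and work as a pair of the proteins encoded by Gabbr1 and Gabbr2. At mid-gestation most of the brain's cells are dividing progenitors or young neurons that have few mature synapses, and many of these genes are already transcribed in young neurons as they migrate and extend processes.

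Promoter sequence is shown for 3 members, because the members were compared as a group and a reader may want to see the DNA before their transcription starts. Gabbr2 had the smallest adjusted p of the 39, and Gria2 and Grm2 hold letters of the element bound by REST, a repressor of neuronal genes. Each line holds the 250 bases before a RefSeq start in GRCm38.p6, read 5′ to 3′ on the gene's strand, from chr4:46991715-46991964 (minus strand) for Gabbr2, chr3:80802836-80803085 (minus strand) for Gria2 and chr9:106656110-106656359 (minus strand) for Grm2. Capitals mark a GC box bound by the SP1 family (GGGCGG, or CCGCCC on the other strand) or 1 of the 2 ends of the REST element (TTCAGCACC or GGACAGC, or their reverse complements).

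Gabbr2: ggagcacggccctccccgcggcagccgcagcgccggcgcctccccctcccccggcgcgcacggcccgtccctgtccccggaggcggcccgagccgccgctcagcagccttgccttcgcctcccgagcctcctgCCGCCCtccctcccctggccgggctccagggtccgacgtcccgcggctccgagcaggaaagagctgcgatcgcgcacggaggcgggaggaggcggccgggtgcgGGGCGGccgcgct
Gria2: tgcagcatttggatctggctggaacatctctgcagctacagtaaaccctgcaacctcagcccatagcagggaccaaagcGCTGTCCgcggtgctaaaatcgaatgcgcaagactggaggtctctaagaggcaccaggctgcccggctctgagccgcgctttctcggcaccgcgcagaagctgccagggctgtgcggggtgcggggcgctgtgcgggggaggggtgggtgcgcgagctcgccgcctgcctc
Grm2: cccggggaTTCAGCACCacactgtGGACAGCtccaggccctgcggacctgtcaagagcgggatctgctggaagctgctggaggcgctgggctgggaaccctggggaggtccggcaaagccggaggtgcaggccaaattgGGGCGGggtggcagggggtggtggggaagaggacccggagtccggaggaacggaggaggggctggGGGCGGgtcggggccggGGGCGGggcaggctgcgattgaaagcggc

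RefSeq windows were matched by symbol for 29 of the 39 genes, which gave 41 windows, so some genes had more windows than others. No window was found for Gria1, Grik1, Grin2a, Grin2b, Grin3a, Grm5, Lrrtm2, Nlgn3, Shank1 and Shank2. Of these, Grm5, Lrrtm2, Nlgn3 and Shank2 are among the genes that fell in valproic acid, described below. A GC box on either strand stood in 18 of the 41 windows and in 32.7% of all 32851 windows of this length. The left end of the REST element, TTCAGCACC, stood in 2 of the 41 windows, those of Grm2 and Nlgn1, and in 0.301% of all windows. The right end, GGACAGC, stood in 3 of the 41, those of Gria2, Grm2 and Homer2, and in 5.28% of all. The cyclic AMP response element TGACGTCA was in 0 of the 41 and in 1.55% of all. The 4 motifs share no position in the windows printed. The Gabbr2 window was 80.8% G and C with 37 CpG pairs, against 64.8% for Gria2 and 71.2% for Grm2. Matches of letters describe the windows and do not show binding.

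Library totals ran from 15399974 to 19883131 counts, and values are given as CPM (counts scaled to library size with TMM factors of 0.978 to 1.02). The labels do not say whether replicates are separate embryos, pools or litters, so p-values measure the spread between these libraries, which may be technical in part. Libraries stood apart by sex-linked transcripts. They did so also within the control and poly(I:C) groups, so the libraries of each of these groups were not all made from the same material. Xist, expressed from the inactive X chromosome, ran from 981 to 1055 CPM in valproic acid and reached 1048 CPM in poly(I:C) replicate 3. Controls 1 and 2 and poly(I:C) replicates 1 and 2 held 196 to 201 CPM of 4 Y-linked genes. Control 3 held 0 counts of those 4 genes and 0.0498 CPM of Xist. No control library therefore had the sex-linked profile of the valproic acid libraries, and sex and valproic acid cannot be told apart in their comparison. Nlgn3 is the X-linked member of the 39.

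Per kilobase of exon, the members with the highest levels in control brain were Nlgn2, a neuroligin of inhibitory synapses, at 62.0 ± 2.74 CPM (SD, n = 3), and Gabbr1 at 51.1 ± 1.89 CPM. The kainate subunit gene Grik5 followed at 39.6 ± 1.78 CPM per kilobase and the scaffold gene Dlgap4 at 34.9. These 4 did not overlap between libraries. Grik3, Dlg4 and Shank1 came next at 25.8, 24.9 and 23.5 CPM per kilobase, and neighbours in that order overlapped between libraries. Gria2, which encodes the subunit that makes AMPA receptors impermeable to calcium, stood at 22.2 ± 0.129. The lowest were Grin2a at 0.174, Gabrg3 at 0.619 and Gabrb1 at 1.24. Grin2b, known as the embryonic partner of Grin1, stood at 4.99 CPM per kilobase against 0.174 for Grin2a, which is known to replace it after birth.

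The first comparison asked how the brains exposed to valproic acid differed from controls. Of the 39 genes 11 fell and 0 rose (edgeR quasi-likelihood test, Benjamini-Hochberg adjusted p under 0.05 over 17171 genes, here named called). Over all tested genes 6.35% were called: 2.78% fell and 3.57% rose, against 28.2% and 0 of the members. The 11 were Gria2, Grm3, Grm5, Gabbr1, Gabbr2, Dlg2, Shank2, Gphn, Nlgn1, Nlgn3 and Lrrtm2, by 1.11-fold to 1.45-fold. The fitted change was below 0 for 36 of the 39, against 50.9% of all tested genes, and the median was -0.16 on the log2 scale against -0.0033 for all tested genes. All 3 valproic acid libraries lay below all 3 controls for 21 of the 39, against 13.0% of all tested genes, and above all controls for 0, against 12.6%.

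**Figure D1:**
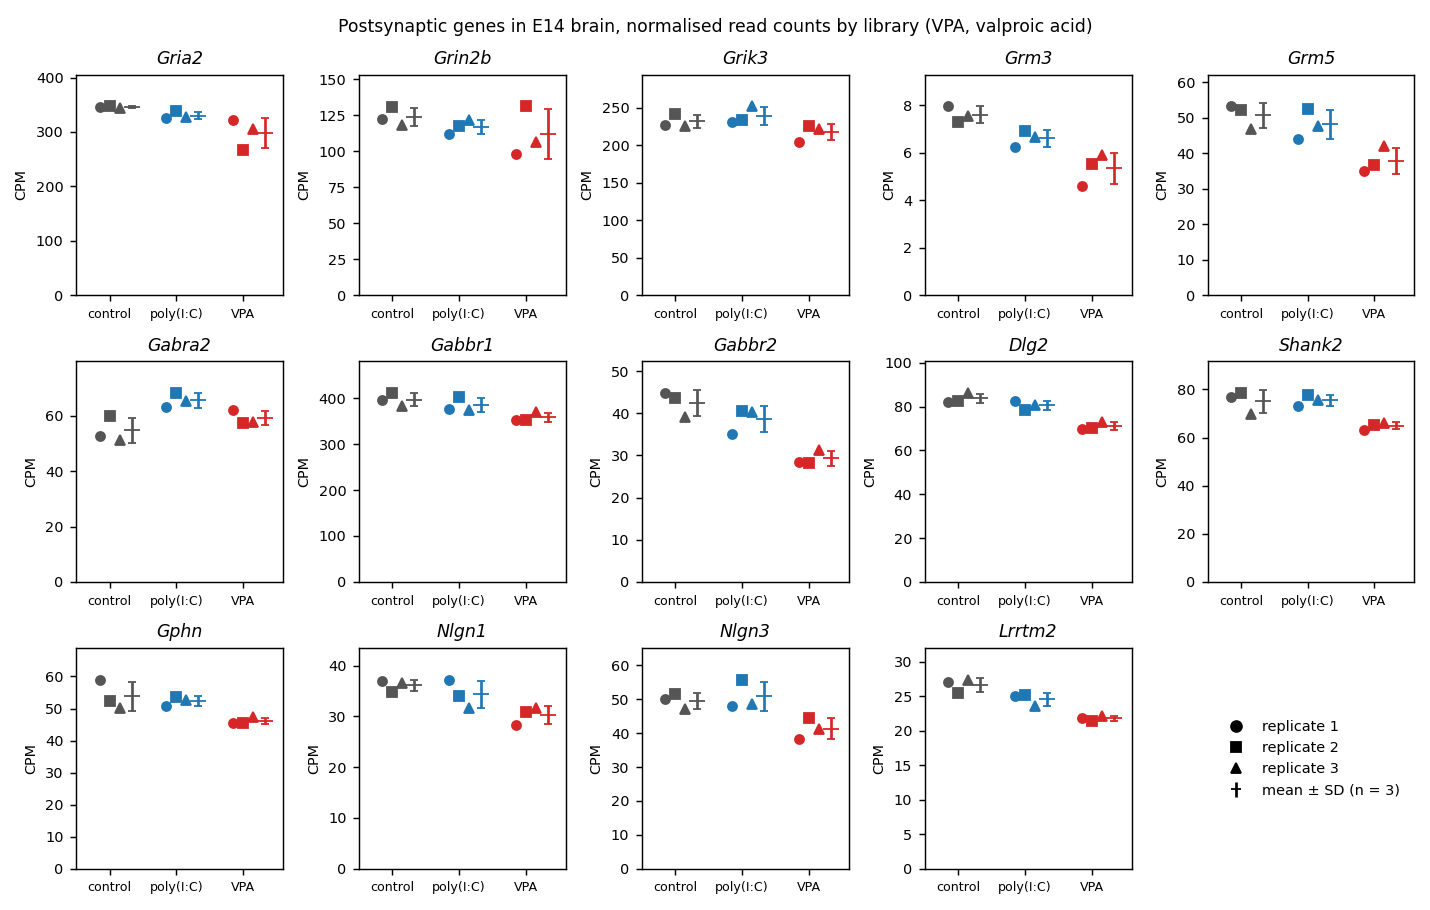
Normalised read counts (CPM, linear axes from 0) of the 11 called genes and of Grin2b, Grik3 and Gabra2 in each library; symbols mark replicates 1 to 3 and bars the mean ± SD (n = 3). For each of the 11 called genes the red valproic acid points lie below all 3 grey control points, and for Gabra2 the blue poly(I:C) points lie above all 3 controls.

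Of the AMPA receptor subunits, 1 of 3 fell. Gria2 was at 346, 348 and 344 CPM in controls 1 to 3, at 325, 338 and 327 in poly(I:C) and at 322, 267 and 305 in valproic acid. The controls were tightly grouped, the poly(I:C) libraries lay just under them, and valproic acid replicate 2 was the lowest of the 9. The fitted change of Gria2 was -0.21 (SE 0.0526, 95% interval -0.33 to -0.10, adjusted p 0.0272). It was past the threshold without valproic acid replicate 1 or 3 but not without any 1 control or valproic acid replicate 2 (adjusted p 0.0517 to 0.0815). Gria1 and Gria4, the other channel-forming subunits, had changes of -0.12 and -0.15 and were not called (adjusted p 0.176 and 0.219).

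None of the 5 NMDA receptor subunits and none of the 4 kainate receptor subunits was called, although all 9 fitted changes were below 0, from -0.28 to -0.06. Grin2b was at 123, 131 and 119 CPM in controls, 112, 117 and 122 in poly(I:C) and 98.3, 131 and 106 in valproic acid. Valproic acid replicate 2 was as high as the highest control, and the groups overlapped (change -0.15, interval -0.32 to 0.03, adjusted p 0.314). Grin1, the subunit that every NMDA receptor contains, was at 26.5 ± 2.96 CPM in controls and 22.2 ± 0.692 in valproic acid (adjusted p 0.0958). Grik3, the most abundant kainate subunit in CPM, was at 227, 242 and 226 in controls, 231, 233 and 252 in poly(I:C) and 205, 225 and 221 in valproic acid. All 3 valproic acid libraries were below the lowest control by a narrow margin, and the change of -0.09 (interval -0.19 to 0.01) was not called (adjusted p 0.266). Grin2a, at 3.12 CPM in controls, had an interval of -0.89 to 0.32 and allowed no statement on its direction.

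Metabotropic glutamate receptors had the lowest median of the 9 roles, -0.41 over 4 genes, and 2 of the 4 fell. Grm5, a receptor of group I that activates phospholipase C, was at 53.3, 52.1 and 46.7 CPM in controls, 44.1, 52.5 and 47.8 in poly(I:C) and 35.0, 36.6 and 41.9 in valproic acid. The poly(I:C) libraries overlapped the controls, with replicate 1 below the lowest control, and all valproic acid libraries were below both groups. The fitted change was -0.42 (SE 0.0800, interval -0.59 to -0.25, adjusted p 0.00724), and it was called without any 1 library (highest adjusted p 0.0371).

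Grm3, a group II receptor that lowers cyclic AMP, was at 7.97, 7.28 and 7.57 CPM in controls, 6.24, 6.92 and 6.66 in poly(I:C) and 4.61, 5.54 and 5.89 in valproic acid. The 3 groups did not overlap. The change was -0.51 (SE 0.135, interval -0.80 to -0.22, adjusted p 0.0371), and it was called when valproic acid replicate 3 was left out but not when any of the other 5 libraries was (adjusted p 0.0627 to 0.125), nor by DESeq2 (0.0651). Grm2, the other group II receptor, was at 16.6 ± 0.869 CPM in controls and 12.6 ± 2.31 in valproic acid, a change of -0.40 that was not called (adjusted p 0.0684). Grm7, of group III, had a change of -0.15 (adjusted p 0.583).

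Both GABA-B receptor subunits fell. Gabbr2, the subunit that couples to the G protein, was at 44.8, 43.6 and 39.0 CPM in controls, 35.0, 40.6 and 40.3 in poly(I:C) and 28.4, 28.2 and 31.3 in valproic acid. Every valproic acid library was below every other library. The fitted change was -0.54 (SE 0.0760, interval -0.70 to -0.37), 1.45-fold lower, with the smallest adjusted p of the 39 (0.00124). It was called without any 1 library (highest adjusted p 0.00827). Gabbr1, the subunit that binds GABA, was at 397, 412 and 382 CPM in controls, 376, 402 and 375 in poly(I:C) and 353, 352 and 370 in valproic acid. Valproic acid lay under both other groups by a small step, 1.11-fold under control (change -0.15, SE 0.0407, adjusted p 0.0421). Gabbr1 was called without control 3 (adjusted p 0.0491) and not without any of the other 5 libraries (0.0517 to 0.137).

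None of the 6 GABA-A receptor subunits was called, and their median change was -0.12. Gabra2, which encodes an alpha subunit abundant before birth, was at 52.8, 60.0 and 51.5 CPM in controls and 62.2, 57.5 and 57.9 in valproic acid. The groups overlapped, since control 2 was above valproic acid replicates 2 and 3, and the change was 0.11 (interval -0.02 to 0.25, adjusted p 0.316). Gabra4, Gabra5, Gabrb1, Gabrb2 and Gabrg3 had changes of -0.21 to -0.02 and adjusted p of 0.239 to 0.924. At the inhibitory scaffold the single member, Gphn (gephyrin, which clusters GABA-A and glycine receptors), fell. It was at 59.0, 52.3 and 50.1 CPM in controls, 50.7, 53.6 and 52.7 in poly(I:C) and 45.4, 45.6 and 47.2 in valproic acid. Control 1 was the highest library and the valproic acid libraries were the lowest 3. The change was -0.22 (SE 0.0614, interval -0.35 to -0.09, adjusted p 0.0449), called without control 3 (0.0377) but not without any other library (0.0693 to 0.179).

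Among scaffolds of excitatory synapses 2 of 9 fell. Dlg2, which encodes PSD-93, was at 82.2, 82.7 and 86.3 CPM in controls, 82.7, 78.4 and 80.7 in poly(I:C) and 70.0, 70.5 and 73.0 in valproic acid. The valproic acid libraries were close to each other and below all 6 others. The change was -0.24 (SE 0.0454, interval -0.33 to -0.14, adjusted p 0.00806), and it was called without any 1 library (highest adjusted p 0.0374). Shank2, of the deepest layer of the postsynaptic density, was at 76.8, 78.5 and 69.7 CPM in controls, 73.2, 77.5 and 75.5 in poly(I:C) and 63.2, 65.4 and 66.2 in valproic acid. Control 3 was the lowest control, still above all valproic acid libraries. The change was -0.21 (SE 0.0532, adjusted p 0.0322), called without control 3 (0.0183) and not without any of the other 5 libraries (0.0578 to 0.114). Dlg4, which encodes PSD-95, the main scaffold of mature excitatory synapses, was at 330 ± 14.7 CPM in controls and 322 ± 6.02 in valproic acid (adjusted p 0.632). The other 6, Dlgap1, Dlgap4, Shank1, Shank3, Homer1 and Homer2, had changes of -0.17 to 0.01 and adjusted p of 0.162 to 0.894.

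Of the adhesion molecules 3 of 5 fell. Nlgn1, the neuroligin of excitatory synapses, was at 37.0, 34.8 and 36.5 CPM in controls, 37.2, 34.0 and 31.7 in poly(I:C) and 28.3, 30.8 and 31.6 in valproic acid. Poly(I:C) ran from just above the highest valproic acid library to above the highest control, and the control and valproic acid groups did not overlap. The change was -0.25 (SE 0.0712, adjusted p 0.0467), and no call was made when any 1 library was left out (0.0650 to 0.154) or by DESeq2 (0.0545).

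Nlgn3, a neuroligin found at both kinds of synapse, was at 49.9, 51.5 and 47.0 CPM in controls, 48.1, 55.7 and 48.6 in poly(I:C) and 38.2, 44.4 and 41.3 in valproic acid. Valproic acid was below all 6 other libraries. The change was -0.26 (SE 0.0711, adjusted p 0.0421), called without valproic acid replicate 2 (0.0331) and not without any other library (0.0604 to 0.136). Lrrtm2, a leucine-rich repeat protein that binds neurexins, was at 27.0, 25.4 and 27.4 CPM in controls, 24.9, 25.2 and 23.5 in poly(I:C) and 21.8, 21.4 and 22.1 in valproic acid. The 3 groups did not overlap. Its change was -0.29 (SE 0.0695, adjusted p 0.0251), called without control 2 (0.0354) and not without any other library (0.0535 to 0.0871). Nlgn2 and Slitrk1, the latter a neuronal protein that binds presynaptic receptor phosphatases, had changes of 0.04 and -0.12 (adjusted p 0.569 and 0.289).

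**Figure D2:**
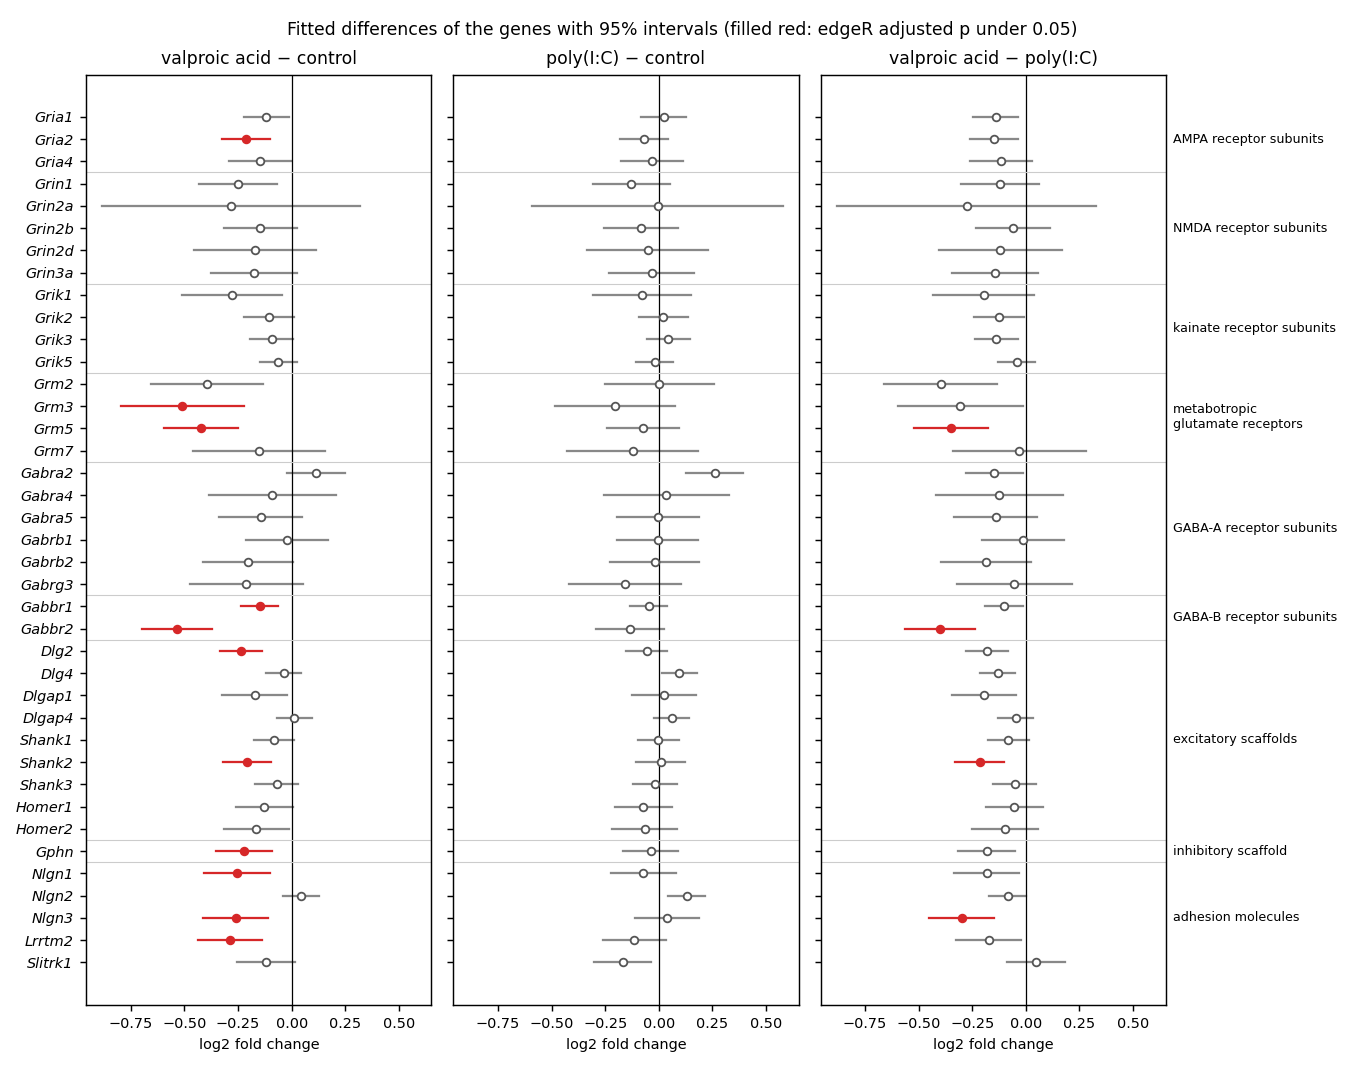
Fitted log2 fold changes of the 39 genes with 95% intervals in 3 comparisons, ordered by role; filled red points are called. The left panel holds 11 red points, the middle panel 0 and the right panel 4, all below 0, and the left and middle panels share the control libraries.

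The median over the 39 genes of log2(CPM + 1) relative to the control mean was 0.01, 0.03 and -0.03 in controls, -0.06, 0.02 and -0.03 in poly(I:C) and -0.20, -0.12 and -0.12 in valproic acid. Valproic acid replicate 1 was the lowest library, and no valproic acid library reached a control. Of the 39 genes 35, 35 and 33 were under the control mean in the valproic acid libraries, against 13 to 28 in controls and 18 to 30 in poly(I:C).

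**Figure D3:**
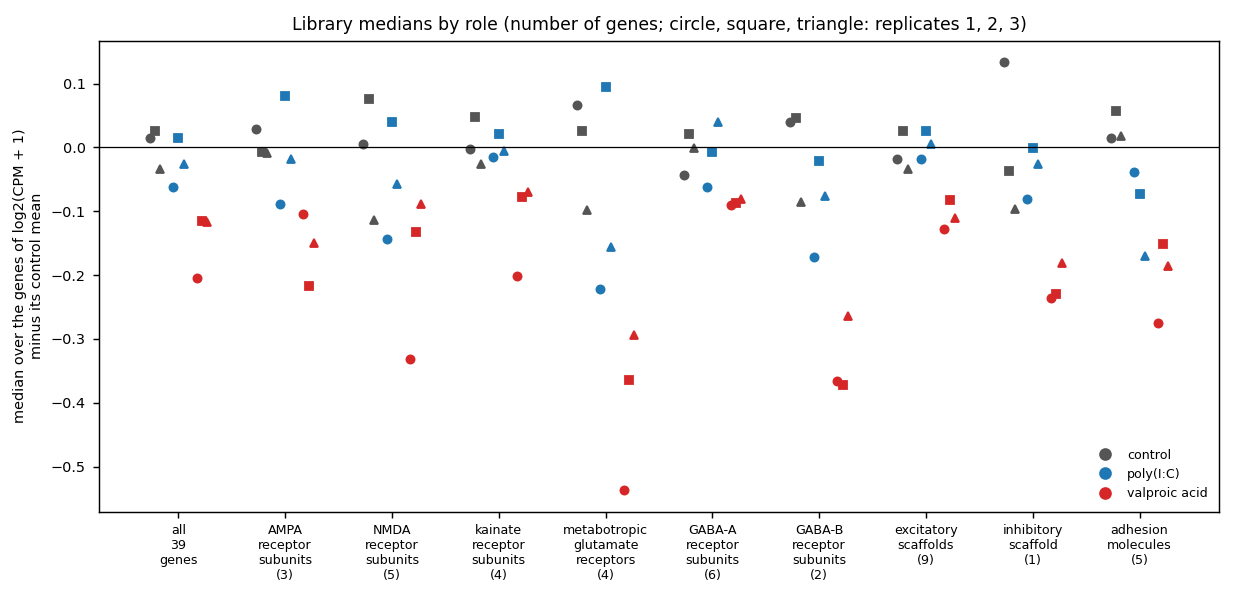
Median over the genes of each role of log2(CPM + 1) minus its control mean, 1 point per library, with the number of genes under each role. Over all 39 genes the valproic acid libraries lie between -0.20 and -0.12 and the control libraries between -0.03 and 0.03.

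Markers of neurons and progenitors moved in the same comparison. Of 12 genes of postmitotic neurons, 4 fell (Map2, Stmn2, Gap43 and Mapt) and 0 rose, with a median of -0.13 and a summed level of 8619 to 8827 CPM in controls against 7916 to 8405 in valproic acid. Each of these 4 lost its call without control 1 and without valproic acid 1 (the highest adjusted p without any 1 library was 0.120, for Gap43), and 0 to 3 of the 12 were called without 1 library. Of 6 genes of intermediate progenitors, which divide to give neurons, 5 rose and 0 fell, from 573 to 611 CPM in controls to 729 to 779. Of 10 radial glia genes 3 rose and 0 fell (1974 to 2027 against 2137 to 2224 CPM). None of 6 glutamatergic and none of 8 GABAergic neuron markers was called, with sums of 1459 to 1515 against 1432 to 1517 CPM and 795 to 812 against 801 to 835 CPM.

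Of 7 mural and fibroblast markers 2 fell and 0 rose, while 5 of the 7 fitted changes were above 0 (median 0.14) and the sum was 518 to 563 CPM in controls and 508 to 621 in valproic acid. Of other cell types, 2 of 8 microglial and 0 of 5 oligodendrocyte precursor markers fell, and 1 of 6 endothelial and 4 of 8 erythroid markers rose (erythroid sum 1787 to 2079 against 2251 to 2593 CPM). Choroid plexus markers were called in 0 of 6 cases, and none of these cell type markers was at 0. With the libraries scaled to the summed counts of the 12 neuron markers, an alternative chosen after seeing the data, 3 of the 39 genes fell (Gabbr2, Grm5 and Grm3) and the median was -0.08 against 0.08 for all tested genes. Such a scaling shifts all genes of a library alike. In whole brain, fewer cells of a type and less RNA per cell cannot be told apart. How far cell composition took part in the members' lower levels was not tested.

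Calls were also counted with sex-linked levels as covariates. With the Y-linked level as a covariate 2 of the 39 genes fell, Gabbr2 (change -0.51, adjusted p 0.0174) and Dlg2 (-0.26, 0.0424), while 272 genes were called over the whole table in place of 1090. With the Xist level as a covariate 0 of the 39 were called, and 19 over the whole table, where poly(I:C) replicate 3 is the library that separates Xist from valproic acid. Under that covariate 33 of the 39 changes were below 0, with a median of -0.13. The fitted change of Gabbr2 was -0.63 (adjusted p 0.147), that of Grm3 -0.53, Grm5 -0.41, Gphn -0.24, Dlg2 -0.24, Shank2 -0.21, Gria2 -0.20, Lrrtm2 -0.19, Nlgn3 -0.17, Gabbr1 -0.10 and Nlgn1 -0.09. What moved the calls was not tested.

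**Figure D4:**
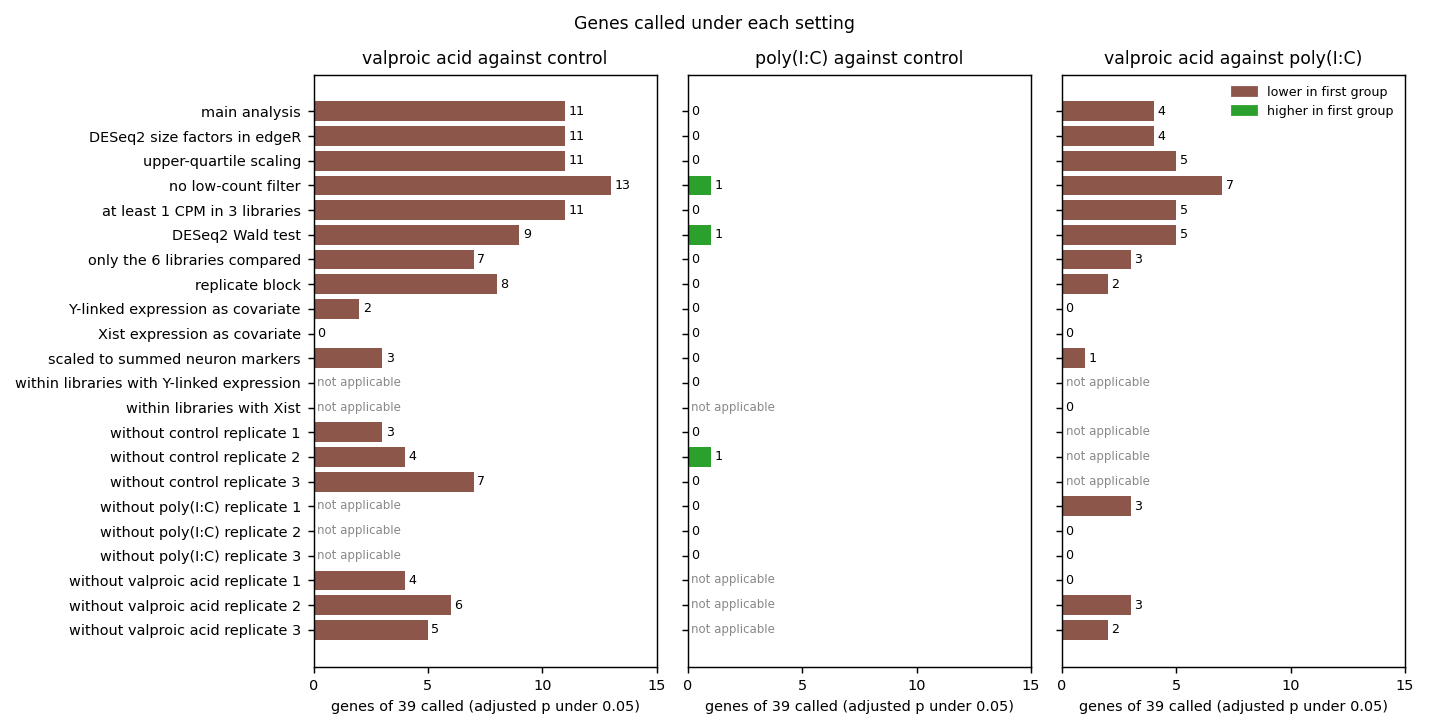
Number of the 39 genes called under each setting in 3 comparisons, brown for lower and green for higher in the group named first; settings that do not apply to a comparison are marked. Calls of valproic acid against control run from 0 to 13 and are all lower, and the 1 green call of poly(I:C) against control is Gabra2.

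Poly(I:C) against control, which shares the 3 control libraries with the comparison above, gave no call among the 39 genes by edgeR, and 0.536% of all tested genes were called (0.274% lower, 0.262% higher). At an unadjusted p under 0.05, 1 of the 39 was lower and 3 were higher, against 5.82% and 6.20% of all tested genes. The median change was -0.03, and 27 of 39 were below 0, against 51.1% of all. The groups did not overlap for 3 lower and 3 higher members, against 8.83% and 9.60% of all tested genes. Of the cell type markers 1 was called, Neurog2 of intermediate progenitors, which rose.

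Gabra2 had the lowest adjusted p among the 39 in this comparison. It was at 63.1, 68.3 and 65.4 CPM in the poly(I:C) libraries against 52.8, 60.0 and 51.5 in controls. All 3 poly(I:C) libraries were above all 3 controls, by 1.20-fold (change 0.26, SE 0.0622, interval 0.13 to 0.39, adjusted p 0.0838). It was past the threshold by DESeq2 (adjusted p 0.0295), with no filter on low counts (0.00361) and without control 2 (0.0343), and not within the 4 libraries with Y-linked expression (change 0.22, adjusted p 0.469).

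The other members with an unadjusted p under 0.05 were Nlgn2, at 358 ± 15.9 CPM in controls and 392 ± 9.71 in poly(I:C) (adjusted p 0.204), Dlg4, at 330 ± 14.7 and 353 ± 5.92 (0.322), and Slitrk1, at 42.9 ± 3.13 and 38.2 ± 1.69 (0.282). Nlgn2 and Gabra2 both act at inhibitory synapses and Dlg4 at excitatory ones. These 3 higher members are 7.69% of the 39, near the 6.20% of all tested genes, so no pattern by synapse is read from them. For Gabbr2 the poly(I:C) change was -0.13 (interval -0.29 to 0.02) and for Grm5 it was -0.07 (interval -0.24 to 0.10), so falls as large as the lower bounds are within these intervals.

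The direct comparison of the exposed groups used the same libraries as the comparisons with control. In valproic acid 4 of the 39 genes were lower than in poly(I:C) and 0 were higher, against 1.18% and 1.42% of all tested genes. The 4 were Gabbr2 (1.32-fold lower, change -0.40, SE 0.0765, adjusted p 0.0159), Grm5 (1.27-fold, -0.35, adjusted p 0.0349), Nlgn3 (1.23-fold, -0.30, adjusted p 0.0394) and Shank2 (1.16-fold, -0.22, adjusted p 0.0451). Valproic acid lay below all poly(I:C) libraries for 20 of the 39, against 11.4% of all tested genes, and the fitted change was below 0 for 38 of 39, against 50.0% of all, Slitrk1 being above 0. At an unadjusted p under 0.05, 19 members were lower and 0 higher, against 8.43% and 8.21% of all tested genes. In the same comparison 3 of 12 neuron markers were lower, and 4 of 6 intermediate progenitor, 7 of 8 erythroid and 3 of 7 mural and fibroblast markers were higher (1 of the 7 was lower). Without 1 library 0 to 4 neuron, 3 intermediate progenitor, 2 to 7 erythroid and 1 to 4 mural and fibroblast markers were called in those directions. Of the 7 genes called against control and not here, Dlg2 was the nearest to the threshold (change -0.18, adjusted p 0.0505), and the 7 changes ran from -0.31 to -0.10.

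Each of these 4 calls was lost without 1 or another library, and fewer genes were called over the whole table as well. Without poly(I:C) 2, poly(I:C) 3 or valproic acid 1, 2 or 3, 112 to 294 genes were called there, in place of 445. Over the 6 fits without 1 library the changes ran from -0.47 to -0.36 for Gabbr2, -0.43 to -0.28 for Grm5, -0.36 to -0.23 for Nlgn3 and -0.24 to -0.20 for Shank2. Gabbr2 was called without poly(I:C) 1, valproic acid 2 or valproic acid 3, and not without poly(I:C) 2, poly(I:C) 3 or valproic acid 1 (adjusted p 0.0507 to 0.0810). Grm5 and Nlgn3 were called in 2 of 6 such fits, without poly(I:C) 1 and without valproic acid 3 for Grm5 and valproic acid 2 for Nlgn3 (otherwise 0.0651 to 0.178). Shank2 was called in 0 of 6 (0.0722 to 0.187). Poly(I:C) 3 is the only poly(I:C) library with Xist, and against it alone the changes were -0.46, -0.34, -0.24 and -0.22 for Gabbr2, Grm5, Nlgn3 and Shank2, beside -0.40, -0.35, -0.30 and -0.22 over all libraries. With 1 library in that arm, whether a call is made says little.

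Other genes of the postsynaptic side were listed separately, 79 in all, of which 78 were tested (Glra1 was at 0.0846 CPM). Against control 14 of the 78 fell in valproic acid (17.9%) and 3 rose (3.85%), against 2.78% and 3.57% of all tested genes, with a median change of -0.14. By role, 5 of 11 GABA and glycine receptor and inhibitory scaffold genes fell, 6 of 29 adhesion genes, 2 of 22 glutamate receptor and auxiliary genes and 1 of 16 scaffold and signalling genes.

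Camk2b, a kinase subunit of the postsynaptic density, fell from 168 ± 8.36 to 135 ± 2.59 CPM (1.24-fold, adjusted p 9.13e-04). It was called without any 1 library (highest adjusted p 0.00506). Ptprf, a receptor phosphatase of the LAR family, rose from 299 ± 11.8 to 348 ± 19.7 CPM (1.16-fold, adjusted p 0.0104), with an adjusted p of 0.0551 without control 1. The other 2 that rose, named here after their values were seen, were Homer3 (1.20-fold, adjusted p 0.0221) and Cacng7 (1.17-fold, adjusted p 0.0363). Homer3 lost its call without control 1, valproic acid 1 or valproic acid 2 (up to 0.0925), and Cacng7 without any library but control 2 (up to 0.128). Leaving out 1 library gave 7 to 10 calls among the 78 in place of 17, fewest without control 1. With the Y-linked covariate 3 were called and with the Xist covariate 0, where the change of Camk2b was -0.30 (adjusted p 0.268) beside -0.31 without it.

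In poly(I:C) against control 0 of the 78 were called by edgeR, with 9 lower and 4 higher at an unadjusted p under 0.05, against 5.82% and 6.20% of all tested genes, and 2 called by DESeq2. The smallest p-values were those of Ptprf, at 345 ± 6.05 CPM (1.15-fold above control, adjusted p 0.0551), and of Slitrk6, at 4.86 ± 0.388 against 7.42 ± 0.453 CPM (adjusted p 0.0603). Between valproic acid and poly(I:C) 4 of the 78 were lower and 0 higher. Neto1, an auxiliary subunit of kainate receptors, was at 21.7 ± 0.976 CPM in valproic acid against 30.6 ± 3.72 in poly(I:C) (1.42-fold, adjusted p 0.00783) and was called without any 1 library (highest adjusted p 0.0355). With the Y-linked covariate its change was -0.44 (adjusted p 0.0727) and with the Xist covariate -0.39 (0.248), and 0 of the 78 were called with either. Camk2b (adjusted p 0.0278) and Slitrk5 (0.0317) were also lower, and each lost its call without at least 4 of the 6 libraries (up to 0.139 and 0.131).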

How the data were processed

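RNA was measured by sequencing in 9 libraries of E14 mouse brain. Per the labels' protocols, total RNA was depleted of ribosomal RNA, fragmented at random and made into libraries. The deposited table holds the authors' raw counts of reads by Ensembl identifier, taken as they stand. HISAT2 and GRCm39 (mm39) are named in the submitters' processing notes. Counting software, strandedness and gene annotation are not given in the sources, so reads of overlapping and antisense genes cannot be told apart.

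Symbols, gene spans and exon lengths were taken from GENCODE M21 (another build, so no gene coordinates are given), and 4675 of the 56748 genes had no symbol. filterByExpr (min.count 10, min.total.count 15) left 17171 genes. Counts were scaled by TMM and all 9 libraries were fitted together with edgeR 4.0.16 in R 4.3.3 by its quasi-likelihood method. Each pair of groups was compared by a two-sided F-test, with Benjamini-Hochberg adjustment over 17171 genes. The biological coefficient of variation was 7.44%. Libraries of 1 group differed beyond counting error (chi-square per degree of freedom from 3.73 up to 6.01), so none was a copy.

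The members, the gene lists and the tests were chosen with earlier results of these data known. Values in all libraries are given for each member called in a comparison and, in a role with none, for its most abundant member. Of the other postsynaptic genes, up to 4 with the smallest adjusted p are named per comparison, less some that are not reported here. The script was tested on simulated data. Alternatives were other scalings and filters, DESeq2 1.42.0, fits without the third group, a block for the replicate number, sex-linked covariates, sex-linked classes and leaving out each library.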

Additional observations from a re-analysis of the deposited data

How the results depend on the processing

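Members called under the alternatives were all lower in valproic acid. Of valproic acid against control, 11 were called with DESeq2 size factors, with upper-quartile scaling and at 1 CPM or more in 3 libraries, 13 with no filter and 9 by DESeq2 (without Grm3 and Nlgn1). Fewer were called with only the 6 libraries compared (7) and with the Y-linked (2) or Xist (0) level as a covariate. Scaled to neuron markers, chosen after seeing the data, 3 were called. Without 1 library 3 to 7 were called, fewest without control 1, of which 3 to 6 were among the 11. The 7 without control 3 included Grin1, and the 6 without valproic acid 2 included Grin2b and Grm2, none called in the main fit. The fits without 1 library called 467 to 789 of all tested genes, in place of 1090. With no filter, 1661 of 32102 genes were called in valproic acid against control, in place of 1090 of 17171. With only the 6 libraries compared, 836 of 16720 genes were called. Of poly(I:C) against control, 1 was called (Gabra2, higher) with no filter, by DESeq2 and without control 2, so 0 to 1 without 1 library. Over the whole table these fits called 464, 169 and 60 genes, in place of 92. Of valproic acid against poly(I:C), 7 were called with no filter, 0 with either covariate, 1 scaled to neuron markers and 0 to 3 without 1 library. Without valproic acid 2 these included Grm2, which the main fit did not call. Over the whole table the neuron scaling called 1712 genes in that comparison, in place of 445. The fit with no filter called 1057 of 32102 genes there, the Y-linked covariate 111 and the Xist covariate 39. Against control the neuron scaling called 2314 genes, in place of 1090. The cause of these differences was not tested, other than that fewer libraries entered some fits. That neuron scaling moved the median of all genes by 0.08 against control and 0.10 against poly(I:C), and the members' medians to -0.08 and -0.03. Same-numbered deviations from the group means correlated at -0.04 to 0.13, above 0.1 in 1 of 9 cases (poly(I:C) 3 with control 3). Over so few libraries, low correlations do not settle whether the replicate numbers pair them. With a replicate block 8, 0 and 2 members were called in the 3 comparisons: against control Grm3 (0.0612), Gabbr1 (0.0545), Gphn (0.0730) and Nlgn1 (0.0684) were no longer called and Grm2 (adjusted p 0.0370) was, and against poly(I:C) Grm5 (0.0527) and Shank2 (0.0684) were no longer called. Changes that reversed were small and not called: in poly(I:C) against control Shank2 (-0.0030 with upper-quartile scaling, -0.0438 within Y-linked libraries, -0.0427 without control 3, up to 0.0434 without 1 library, -0.0115 without poly(I:C) 2, -0.0078 scaled to neuron markers), Grik3 (-0.0163 within Y-linked libraries), Gphn (0.0326 without control 1, down to -0.0872 without 1 library) and Nlgn3 (-0.0314 without poly(I:C) 2, up to 0.0792 without 1 library), and in valproic acid against poly(I:C) Grin2b (0.0261 without valproic acid 1, down to -0.1928 without 1 library, 0.0393 scaled to neuron markers) and Gabbr1 (0.0032 scaled to neuron markers). At 3 libraries a group, members under about 10 CPM such as Grin2a have wide intervals.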

Other observations

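Postsynaptic genes are often long, and length was read here from the span of the gene on the chromosome. The 11 genes that fell in valproic acid against control had a median span of 330 kb (6.02 to 1970 kb), and the other 28 had a median of 144.5 kb (5.36 to 922 kb). Dlg2 spans 1970 kb and Nlgn1 906 kb, while Lrrtm2 (6.02 kb), Nlgn3 (26.8 kb) and Gabbr1 (29.1 kb) also fell. Across the 39 genes the Spearman correlation of span with the fitted change was -0.20, a description over genes of the same libraries.

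Over the whole table the same comparison had more lower calls among longer genes. Of 535 tested genes over 300 kb, 56 were lower (10.5%) and 2.24% were higher, while of genes under 10 kb 1.50% were lower and 3.87% higher. Of the 39 members, 16 were over 300 kb and 6 of those 16 fell. Against poly(I:C), 3.36% of the genes over 300 kb were lower in valproic acid, and in poly(I:C) against control 0.374% were lower. Span and the markers of neurons were not separated, so the part of either was not tested.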
